A study of Mus musculus with 12 samples.

Results

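Cytochrome c oxidase (complex IV) passes electrons from cytochrome c to oxygen at the end of the mitochondrial respiratory chain. Its catalytic core is encoded by the mitochondrial genome and made on ribosomes inside the organelle, whereas the surrounding subunits are encoded in the nucleus, made on cytosolic ribosomes and imported. Sensory neurons depend heavily on this chain to fuel their cell bodies and long axons. The subunits described here were 5 of the 101744 transcripts in the deposited table, selected by transcript ID. They were the 3 core subunits made in mitochondria, namely mt-Co1 (ENSMUST00000082402.1), mt-Co2 (ENSMUST00000082405.1) and mt-Co3 (ENSMUST00000082409.1), and 2 subunits made in the cytosol, Cox4i1 (ENSMUST00000034276.13) and Cox5a (ENSMUST00000000090.8). The names were supplied with the IDs, since the table itself lists IDs only, and each value is that of 1 transcript and not of a whole gene.

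The mice carried the genotype RPL22HA+/+;Advillin-Cre+ in every group, so no group without the tag or without Cre enters any comparison. In this RiboTag design, the Advillin promoter drives Cre in sensory neurons of peripheral ganglia, and Cre turns on RPL22, a large-subunit protein of the cytosolic ribosome, with an HA tag. Ribosomes of mitochondria have their own proteins and contain no RPL22. RNA was recovered from dorsal root ganglia by anti-HA immunoprecipitation (IP) or taken as input, from mice with sciatic nerve injury or without it, giving 4 groups of 3 samples: IP uninjured, IP injured, input uninjured and input injured. Input is labelled as total RNA, although the protocol attached to it describes an immunoprecipitation. Age, time after injury, number of animals and pooling are not stated in the labels. The other cytochrome oxidase subunits, their assembly factors, cell type markers and Rpl22 itself were not analysed here, because 0 transcript IDs matched a gene table.

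Totals were 1584104 to 1685756 estimated counts per input sample and 190594 to 212449 per IP sample. The SD of the 3 totals of a group was 54.8 counts in IP injured, 479 in IP uninjured, 645 in input injured and 329 in input uninjured, against 437, 460.4, 1259 and 1298 for counting noise alone. Over transcripts with a mean of at least 300 counts, the 3 samples spread by a median of 0.945 relative to counting noise in IP injured (40 transcripts), 1.34 in IP uninjured (41), 1.34 in input injured (727) and 1.41 in input uninjured (755). These spreads lay near or below counting noise, so the 3 samples of a group may be technical. They were summed and counted as 1 sample. Non-overlap of samples between groups is therefore a description and no test. How common it was on its own over all transcripts is not given here. The 95% counting intervals do not cover differences between animals, and fits that took the samples as replicates were run as alternatives. For the 5 transcripts, the 3 samples agreed within counting noise (chi-square p above 0.05) in 19 of 20 combinations of transcript and group. The exception was Cox5a in uninjured IP, with 32, 0 and 52 counts. Levels are CPM values, which are counts relative to library size, after TMM scaling, which sets libraries side by side by their shared transcripts. They are compared between groups and not between genes. Transcript lengths were not used here.

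mt-Co1 forms the catalytic core that reduces oxygen. Its level was 4340.02, 4299 and 4329 CPM in the 3 uninjured input samples and 3748, 3743 and 3903 in the injured input samples. In IP it was 3517, 3367 and 3552 CPM in uninjured and 6027, 6006 and 5823 in injured samples. From high to low the order was IP injured, input uninjured, input injured, IP uninjured, and no neighbouring groups overlapped.

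mt-Co2 carries the copper centre that takes electrons from cytochrome c. It stood at 5809, 5891 and 5807 CPM in uninjured input and at 4943, 4923 and 4939 in injured input. The uninjured IP samples held 2046, 1987 and 2009 CPM and the injured IP samples 3705, 3991 and 4032. Here both input groups lay above both IP groups, uninjured IP was lowest, and again no groups overlapped.

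mt-Co3 completes the mitochondrially made core. Its level was 7791, 7878 and 7886 CPM in uninjured input and 6321, 6487 and 6423 in injured input, and 5558, 5361 and 5427 in uninjured and 8597, 8585 and 8889 in injured IP. As for mt-Co1, injured IP was the highest group and uninjured IP the lowest, without overlap.

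Cox4i1 is the common isoform of subunit IV, which binds the core and takes part in regulation by ATP. It had 5811, 5839 and 6054 CPM in uninjured input and 4529, 4532 and 4547 in injured input. In IP the level was 87.9, 143 and 135 CPM in uninjured samples, from 32, 52 and 49 counts, and 195, 160 and 204 in injured samples, from 67.6, 55.4 and 71 counts. The IP groups lay far below both input groups and, on these few counts, did not overlap each other.

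Cox5a is another nuclear encoded subunit and binds the matrix side of the enzyme. It had 1715, 1660 and 1602 CPM in uninjured input and 1408, 1423 and 1419 in injured input. In uninjured IP it was listed at 87.9, 0 and 143 CPM, and in injured IP at 147, 164 and 109. These IP groups overlapped, and uninjured IP spread widely around its mean of 77.0 ± 72.2 CPM (SD, n = 3).

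**Figure D1:**
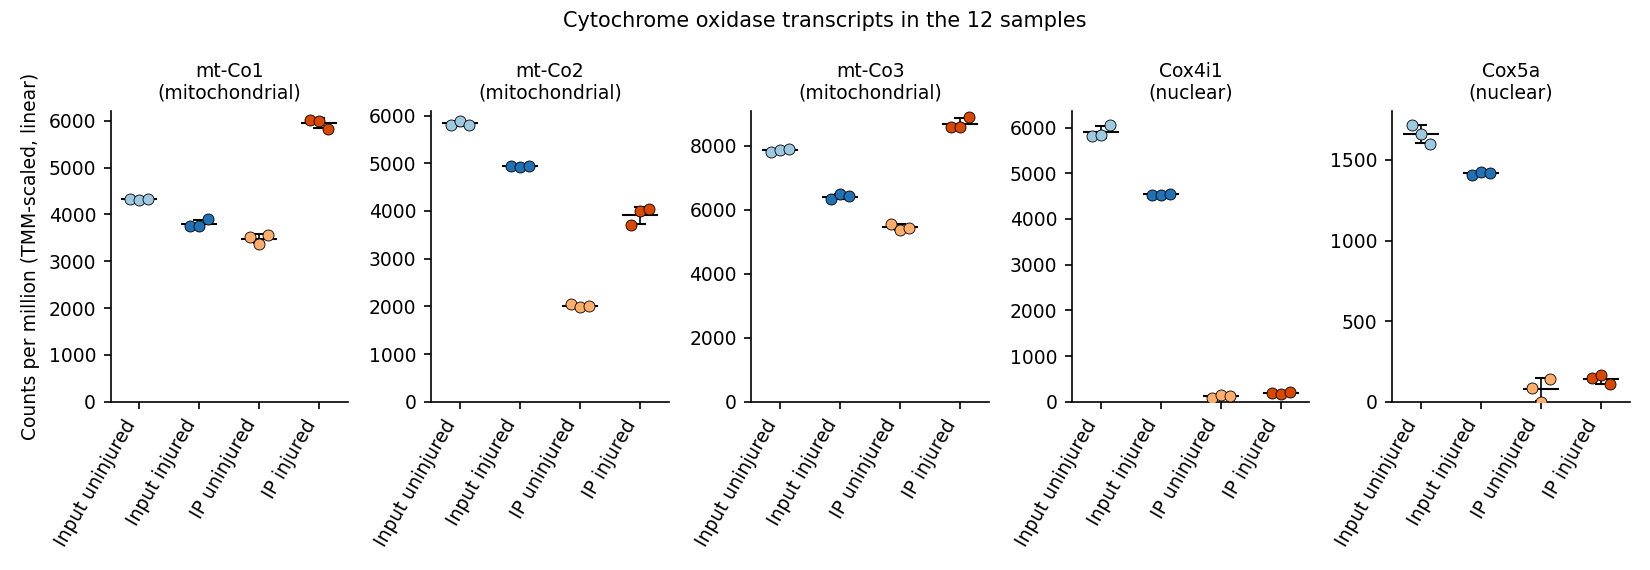
Level of each transcript in the 12 samples, in TMM-scaled CPM on linear axes that start at 0; points are samples, black lines group means and bars the SD of 3 samples. The uninjured IP samples of mt-Co1, mt-Co2 and mt-Co3 lie below their input samples, those of mt-Co2 at 1987 to 2046 CPM. Cox4i1 and Cox5a lie near the bottom of their panels in both IP groups.

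The comparison of IP with input sets the level of each RNA in the IP library against its level in input. With no group lacking the tag or Cre, RNA on tagged ribosomes and background RNA in IP cannot be told apart. The subunits made in mitochondria had far higher IP to input ratios than those made on cytosolic ribosomes. In uninjured ganglia the mean log2 ratio of IP to input was -0.79 for the mitochondrially encoded and -5.01 for the nuclear encoded transcripts. The difference was 4.22 on the log2 scale (95% counting interval 4.02 to 4.42), 18.6-fold. This interval does not cover the spread of Cox5a in uninjured IP, and with 1 sample left out the difference ranged from 4.01 to 4.66. In injured ganglia the means were 0.25 and -3.97, and the difference was again 4.22 (4.06 to 4.38), 18.7-fold. Scaling cancels in this difference. Each of the 6 pairings of a mitochondrially with a nuclear encoded transcript had the same sign, from 7.43-fold (mt-Co2 against Cox5a) to 38.9-fold (mt-Co1 against Cox4i1) in uninjured ganglia and from 8.01-fold to 38.2-fold in injured ganglia.

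The same contrast was visible within single samples. For each count of Cox4i1 and Cox5a together, the 3 mitochondrially encoded transcripts together had 2.38, 2.41 and 2.35 counts in uninjured input and 2.53, 2.54 and 2.56 in injured input. The corresponding values were 63.3, 74.7 and 39.5 in the uninjured IP samples and 53.7, 57.4 and 59.7 in the injured IP samples. No IP sample came near an input sample. Taking the samples as separate, an exact two-sided permutation test of 3 against 3 gave p = 0.1 in either condition. That is the smallest p this design allows and follows from any complete separation. As the samples of a group may be technical, it says nothing about differences between animals. As shares of the library, the mitochondrially encoded transcripts made up 1.87% of uninjured IP (exact 95% interval 1.84% to 1.91%) and 1.04% of uninjured input (1.03% to 1.04%). Cox4i1 and Cox5a made up 0.0341% (0.0297% to 0.0390%) and 0.434% (0.429% to 0.440%).

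**Figure D2:**
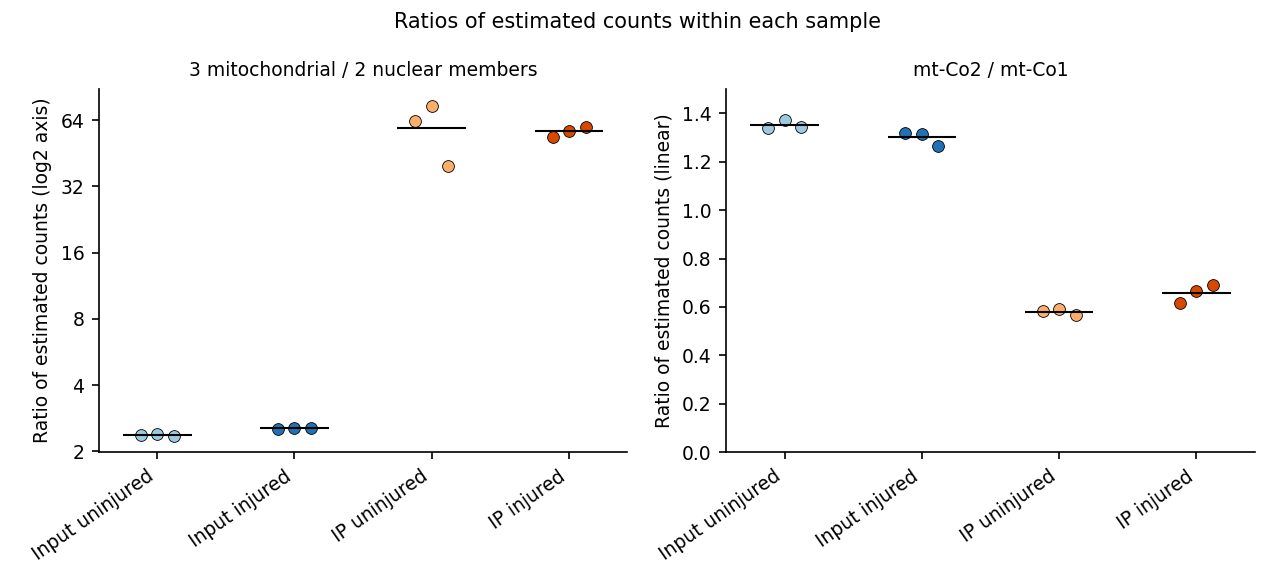
Ratios of estimated counts within each of the 12 samples: left, mt-Co1, mt-Co2 and mt-Co3 together over Cox4i1 and Cox5a together on a log2 axis; right, mt-Co2 over mt-Co1 on a linear axis; lines are group means of 3. The left ratio is 2.35 to 2.56 in input and 39.5 to 74.7 in IP, and the right ratio is 1.27 to 1.37 in input and 0.565 to 0.692 in IP.

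A difference was called for a transcript that reached 10 CPM in the higher group, with at least a 2-fold ratio, a counting interval off 1 and no overlap between the 3 samples of each group. In uninjured ganglia 3 of the 5 transcripts were lower in IP by this rule, as were 39.8% of the 10236 compared transcripts, and 0 were higher, against 19.6%. In injured ganglia 2 of 5 were lower, against 39.0% of 9718, and 0 higher, against 17.0%. Counts over 5 members are small, and the ratios themselves show where the 2 kinds of subunit stood.

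Cox4i1 was 48.4-fold lower in IP than in input in uninjured ganglia (40.8 to 57.8) and 24.4-fold lower in injured ganglia (21.1 to 28.2). Cox5a was 21.5-fold lower (17.3 to 27.0) and 10.1-fold lower (8.57 to 12.01). Among all compared transcripts, 5.11% had a lower ratio than Cox4i1 and 10.7% a lower ratio than Cox5a in uninjured ganglia, and 7.74% and 16.5% in injured ganglia. Both thus stood in the lower part of the table. The value of Cox5a in uninjured ganglia varied with the IP samples used: its log2 ratio of -4.43 became -3.92 without the sample listed at 0 and -5.29 without the third sample.

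The mitochondrially encoded transcripts stood near the middle. In uninjured ganglia mt-Co1 had an IP to input ratio of 0.805 (0.776 to 0.835) and mt-Co3 one of 0.694 (0.674 to 0.714), with 53.4% and 50.7% of compared transcripts below them. mt-Co2 was 2.90-fold lower in IP (2.77 to 3.03), with 39.3% below it. In injured ganglia the ratio was 1.57 for mt-Co1 (1.52 to 1.62), 1.36 for mt-Co3 (1.32 to 1.39) and 0.792 for mt-Co2 (0.765 to 0.821), and none of these met the rule. Their position was then higher in the table, with 70.6%, 66.9% and 54.2% of transcripts below.

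In uninjured ganglia, whether these 3 were above or below input depended on the scaling. In injured ganglia this was so for mt-Co2 only. With library totals alone the log2 ratio of every transcript moved by 1.58 in uninjured and 1.71 in injured ganglia, and the median of all compared transcripts moved from -0.59 to 0.99 and from -0.64 to 1.07. The ratio of mt-Co1 then became 2.40 and 5.13, that of mt-Co2 1.03 and 2.59, and that of mt-Co3 2.07 and 4.44. Cox4i1 stayed 16.2-fold and 7.45-fold lower in IP, and Cox5a 7.22-fold and 3.09-fold lower.

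**Figure D3:**
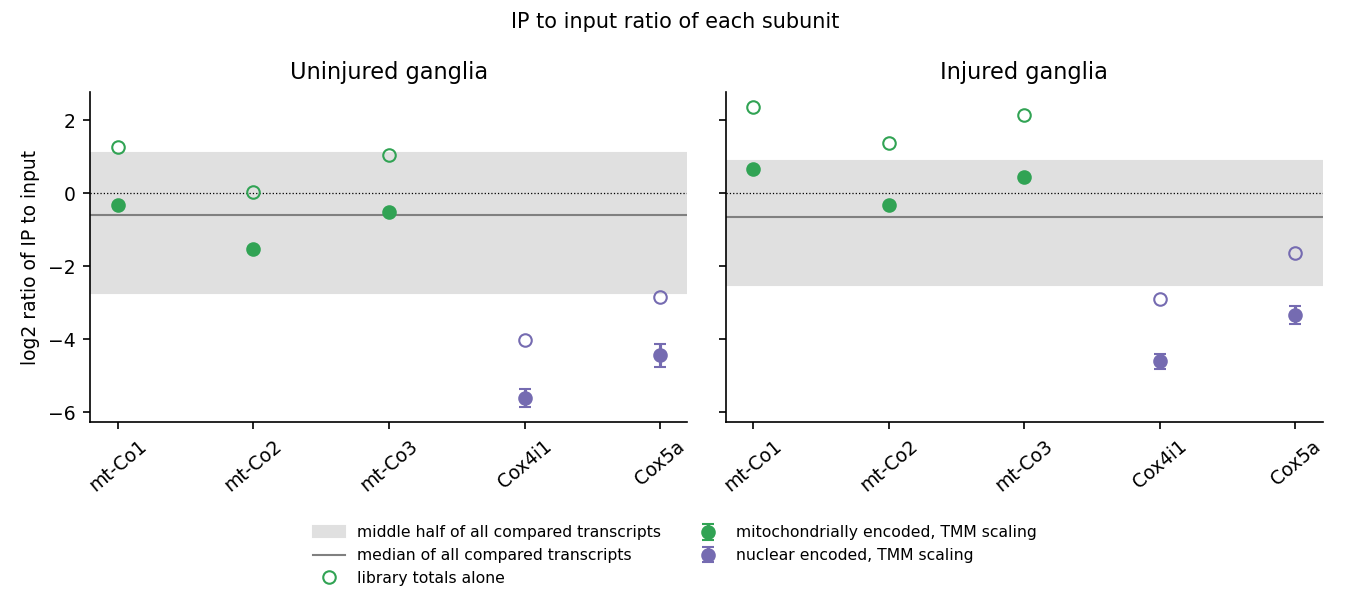
Log2 ratio of IP to input for each transcript in uninjured (left) and injured (right) ganglia; filled points use TMM scaling and carry 95% counting intervals, open points use library totals alone, the grey band spans the middle 50% of all compared transcripts and the grey line is their median. With TMM scaling mt-Co1, mt-Co2 and mt-Co3 lie inside the band and Cox4i1 and Cox5a below it, in both conditions.

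The transcripts of 1 kind also differed among themselves. For each count of mt-Co1 there were 1.34, 1.37 and 1.34 counts of mt-Co2 in uninjured input, 1.32, 1.32 and 1.27 in injured input, 0.582, 0.590 and 0.565 in uninjured IP and 0.615, 0.664 and 0.692 in injured IP. The IP and input samples did not overlap. The IP to input ratio of mt-Co1 was 2.33-fold that of mt-Co2 in uninjured ganglia (2.20 to 2.47) and 1.98-fold in injured ganglia (1.89 to 2.07). mt-Co1 and mt-Co3 lay closer, at 1.16-fold in both conditions (1.11 to 1.21 and 1.11 to 1.20). Of the nuclear encoded pair, Cox4i1 had the lower IP to input ratio, 2.25-fold below Cox5a in uninjured (1.71 to 2.96) and 2.41-fold below it in injured ganglia (1.94 to 3.00). The first of these intervals does not cover the spread of Cox5a in uninjured IP.

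The comparison of injured with uninjured ganglia asks how each RNA differed after nerve injury. All 5 transcripts had higher values in injured than in uninjured IP, as did 47.6% of all compared transcripts. All 5 had lower values in injured than in uninjured input, where only 42.8% of all compared transcripts had higher values. The directions of the 5 members held under every scaling tried. These were TMM over all or over the compared groups, library totals, DESeq2 size factors, and TMM without the 2 most abundant IP transcripts. None of the 5 met the rule for a difference in either fraction. Of all compared transcripts, 11.8% of 8041 were higher and 10.5% lower after injury in IP, and 9.07% of 9139 were higher and 7.45% lower in input. In bulk RNA, fewer cells of a type and less RNA per cell cannot be told apart.

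In IP the largest ratio of injured to uninjured was that of mt-Co2, at 1.94 (1.84 to 2.05), just under 2-fold. Next came Cox5a at 1.82 (1.38 to 2.41), mt-Co1 at 1.71 (1.64 to 1.78), mt-Co3 at 1.60 (1.54 to 1.65) and Cox4i1 at 1.53 (1.22 to 1.92). The samples of the 2 groups did not overlap for any of these except Cox5a. This does not measure differences between animals and is not set against all transcripts here. The median log2 ratio was 0.77 over the 5 members and -0.06 over all compared transcripts. The share of compared transcripts with a higher value ran from 20.2% for mt-Co2 to 28.5% for Cox4i1. Without the uninjured IP sample listed at 0, the log2 ratio of Cox5a was 0.31 in place of 0.86, and without the third sample 1.695. With library totals alone mt-Co2 had a log2 ratio of 1.05 and met the rule. Without the 2 transcripts with the most IP counts, which are no members, the 5 log2 ratios ran from 0.61 to 0.96, as with them.

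In input the ratios of injured to uninjured lay between 0.769 and 0.879. Cox4i1 had 0.769 (0.751 to 0.787), mt-Co3 0.816 (0.800 to 0.833), mt-Co2 0.846 (0.826 to 0.865), Cox5a 0.854 (0.818 to 0.891) and mt-Co1 0.879 (0.856 to 0.902). The injured and uninjured samples overlapped for none of the 5, with the same limits as in IP. These are small differences on the scale of the table, whose median log2 ratio was -0.12, and their size depended on the scaling. When the input groups alone were scaled together, the log2 ratio was -0.27 for Cox4i1 and -0.07 for mt-Co1, in place of -0.38 and -0.19.

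**Figure D4:**
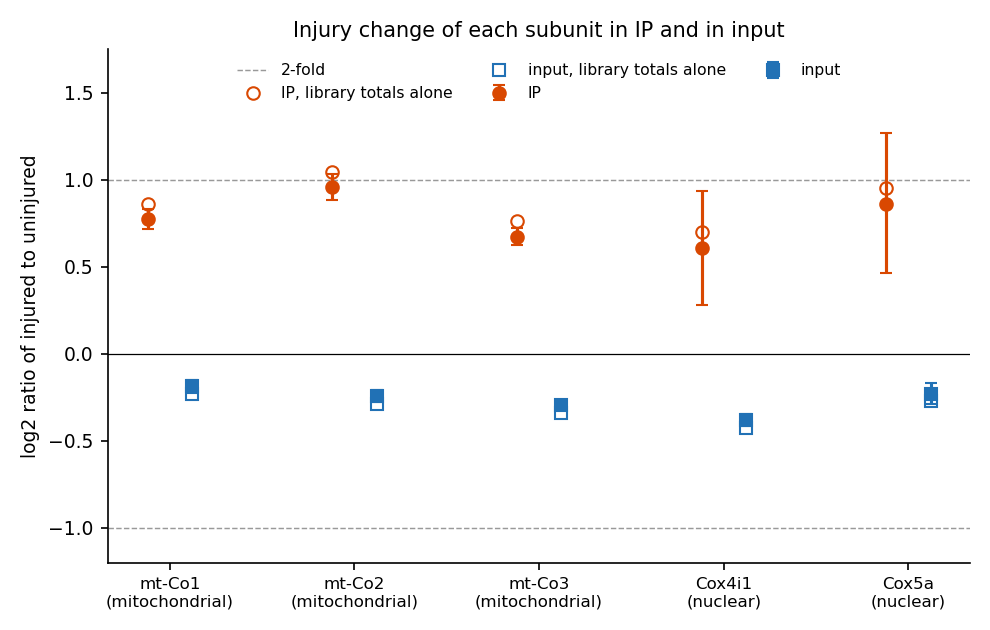
Log2 ratio of injured to uninjured for each transcript in IP (circles) and input (squares); filled symbols use TMM scaling with 95% counting intervals, open symbols library totals alone, and dashed lines mark 2-fold. With TMM scaling all 5 IP values lie between 0.61 and 0.96 and all 5 input values between -0.38 and -0.19. With library totals alone mt-Co2 in IP lies at 1.05, past the 2-fold line.

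The injury change in IP minus that in input was close to 2-fold for every member. It was 0.96 on the log2 scale for mt-Co1 (0.89 to 1.03), 1.20 for mt-Co2 (1.12 to 1.28), 0.97 for mt-Co3 (0.91 to 1.02), 0.99 for Cox4i1 (0.67 to 1.31) and 1.09 for Cox5a (0.70 to 1.48). Such a difference was called at a size of 1 or more with an interval off 0, among transcripts that reached 10 counts in each group. mt-Co2 and Cox5a met this rule, 2 of 5, against 10.9% of 4928 transcripts in this direction and 9.33% in the other. The values of the remaining members lay just under the limit, and with library totals alone the 5 values were 1.10 (mt-Co1), 1.33 (mt-Co2), 1.10 (mt-Co3), 1.12 (Cox4i1) and 1.22 (Cox5a), all past it. The share of transcripts with a larger difference was 13.7% for mt-Co1, 8.87% for mt-Co2, 13.6% for mt-Co3, 13.0% for Cox4i1 and 10.8% for Cox5a. For Cox5a the difference was 0.56 without uninjured IP sample 2, listed at 0, and 0.91 without injured IP sample 2, both under the limit, and 1.93 without uninjured IP sample 3. When the samples were taken as replicates, edgeR's quasi-likelihood test gave Cox5a an adjusted p of 0.546 and mt-Co2 one of 4.91e-06. Of 1080 other transcripts with at least 50 counts in every group, 22% were likewise higher in IP and lower in input after injury.

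No difference in the injury change was resolved between the 2 kinds of subunit in IP. The mean log2 change there was 0.80 for the mitochondrially and 0.74 for the nuclear encoded transcripts, a difference of 0.07 (-0.19 to 0.32). The interval leaves room for a difference of up to 1.25-fold and does not cover the spread of Cox5a. In input the means were -0.24 and -0.30, a difference of 0.06 (0.02 to 0.10). It rested on Cox4i1, without which it was -0.01. The change in IP minus that in input differed between the 2 kinds by 0.003 (-0.25 to 0.26). That interval does not cover the spread of Cox5a in uninjured IP either. Without uninjured IP sample 3, the difference between the 2 kinds in IP alone was -0.37.

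Among the mitochondrially encoded transcripts the injury change in IP was not uniform. That of mt-Co2 was 1.22-fold that of mt-Co3 (1.14 to 1.29) and 1.13-fold that of mt-Co1 (1.06 to 1.21). The ratio of mt-Co2 to mt-Co3 counts was 0.368, 0.371 and 0.370 in uninjured and 0.431, 0.465 and 0.454 in injured IP, without overlap. In input it was 0.746, 0.748 and 0.736 in uninjured and 0.782, 0.759 and 0.769 in injured samples, again without overlap but closer together. The counts of Cox5a for each count of Cox4i1 were 0.295, 0.284 and 0.265 in uninjured and 0.311, 0.314 and 0.312 in injured input.

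Other transcripts with the most similar pattern over the 4 groups were sought among those 1080, by the root mean square difference of log2 CPM centred on the mean of the 4 groups. Nearest to the mean pattern of the mitochondrially encoded members were ENSMUST00000055738.12, at 0.09, and ENSMUST00000023810.12, at 0.10, which is nearer than mt-Co3 (0.12), mt-Co1 (0.22) and mt-Co2 (0.34) themselves. ENSMUST00000055738.12 had 413 counts in uninjured and 337 in injured input, and 102 and 146 in the matching IP groups. Nearest to the mean pattern of Cox4i1 and Cox5a, each 0.31 from it, were ENSMUST00000102814.5 and ENSMUST00000038446.10, both at 0.07. ENSMUST00000102814.5 had 6303 counts in uninjured and 4439 in injured input, and 64 and 108 in the matching IP groups. Gene names for these IDs are not used here, since the table lists IDs only.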

How the data were processed

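Per the labels' protocols, libraries of the 12 mouse dorsal root ganglion samples came from a nanopore kit for barcoded PCR-cDNA. The authors deposited a table of estimated counts, 1 row per transcript, with values that are not all whole; the submitters' processing notes name minimap2, Salmon, GRCm39 and mm39, without roles, versions or settings. Estimated counts can be divided among similar transcripts, so a single transcript can gain or lose reads to another. Reads carry no molecular identifiers, so intervals cover counting error only.

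Members, lists and tests were chosen with earlier results of these data known. All 5 members are reported; likeness was computed by the rule stated there. The 3 samples of a group were summed and rounded, and library totals were multiplied by TMM factors (edgeR 4.0.16) from the 9959 transcripts passing filterByExpr. Factors were 0.575 and 0.557 for uninjured and injured input and 1.71 and 1.82 for IP. Intervals of ratios are exact conditional; those of differences use a normal approximation. A transcript at 0 in one group was set to 3 counts. Alternatives were edgeR's quasi-likelihood test with Benjamini-Hochberg adjustment and DESeq2 1.42.0, taking the samples as replicates; those p-values measure the spread between these samples, which may be technical. The scripts were tested on simulated data. For the rule by which differences were called, these had counting noise only, at input depth. They do not cover the lower depth of IP or the spread of Cox5a there. Gene lists and cell type markers could not be matched to transcript IDs and were not used. No sequences are shown, as none of the members' RNA or proteins was in the tables used here.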

Additional observations from a re-analysis of the deposited data

Results flagged for a closer look

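In 4 members every injured sample lay above every uninjured sample in IP and below every uninjured sample in input. How many of all transcripts did so is not given here. Overlap aside, 22% of 1080 other transcripts with at least 50 counts in every group were higher in injured IP and lower in injured input. The log2 injury change in IP minus that in input was 0.96 for mt-Co1, 1.2 for mt-Co2, 0.97 for mt-Co3 and 0.99 for Cox4i1. The difference was not tested across animals. Taking the samples as replicates, edgeR's quasi-likelihood test of this difference gave adjusted p of 1.43e-05, 4.91e-06, 6.71e-06 and 0.0163 in the same order. For the separate injury changes of Cox4i1 the test gave 0.0282 in IP and 0.0877 in input. With the replicate number as a block these were 0.0515 and 0.163, and mt-Co1 in input went from 0.0389 to 0.104. The other separate changes of these members stayed below 0.05 in both fits.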

How the results depend on the processing

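With library totals alone the log2 ratio of IP to input was 1.26 for mt-Co1, 0.0413 for mt-Co2 and 1.05 for mt-Co3 in uninjured ganglia and 1.37 for mt-Co2 in injured ganglia, all reversed in sign. Transcripts higher in IP then made up 68.4% and 73.7% of those that differed, against 33.0% and 30.3%. The difference between mitochondrially and nuclear encoded members in the ratio of IP to input was 3.64 without Cox4i1 and 4.80 without Cox5a in uninjured ganglia. In injured ganglia it was 4.02, 4.52, 4.13, 3.59 and 4.86 without mt-Co1, mt-Co2, mt-Co3, Cox4i1 and Cox5a, and 4.48 from summed members. With 1 sample left out it ranged from 4.01 to 4.66 in uninjured and from 4.18 to 4.27 in injured ganglia. For the injury change in input the same difference was 0.0947 from summed members and 0.0363, 0.0893, -0.0127 and 0.139 without mt-Co1, mt-Co3, Cox4i1 and Cox5a. For the injury change in IP it ranged from -0.37, without uninjured IP sample 3, to 0.28.

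Taking the samples as replicates, edgeR counted 994 transcripts for injury in IP and 597 in input, 754 and 423 with the replicate block, and DESeq2 1029 and 878, against 1798 and 1510 reported; without a filter the input count was 2363. Higher transcripts made up 54.9% for injury in input, 71.9% when the input groups alone were scaled together, 72.5% in edgeR, 77.1% with the replicate block and 70.2% in DESeq2; for injury in IP they made up 52.9%, and 64.6% in DESeq2. The cause of these shifts was not tested. Deviations from group means over 240 transcripts were correlated as a check of pairing: same-numbered samples had r of -0.03 to 0.25 for injury in input and -0.30 to 0.40 in IP, and between IP and input -0.07 to 0.25 in uninjured and -0.06 to 0.26 in injured ganglia, so the numbers were not taken as pairs. The difference between injury changes in IP and input was added as a result after the data were seen, and so were 2 scalings of the counts. IP depth limits Cox4i1 and Cox5a, which had 84 to 194 counts per group there.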
